A study of Mus musculus with 23 samples.

Results

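Hypothalamic RNA of vehicle-injected mice was compared between 4 days and 1 day of injection, with no drug given in either group. The arrays were chosen by their titles, 4 at 4 days and 4 at 1 day, which makes 8 of the 23 arrays of the series. Both groups were male db/db mice, 8 weeks old, kept on chow for 2 weeks and injected intraperitoneally with DMSO at 25 µl per day. The db/db strain carries a mutation of the leptin receptor gene that abolishes leptin signalling and makes the animals obese and diabetic, and the groups compared here share it, so no lean animal enters. The remaining groups are vehicle mice at 6 h (4 arrays) and mice given celastrol, a plant triterpenoid, at 6 h (3 arrays, 250 µg/kg), 1 day and 4 days (4 arrays each). By the labels, the groups compared differ in the time of injection, while no source used here states the hour of killing, the limits of the dissection or the days of hybridisation. The labels call the arrays biological replicates, so the p-values measure the spread between these samples.

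The tissue carried the peptides that define the hypothalamus. Hcrt, the gene of the arousal peptide orexin, stood at log2 12.80 ± 0.0503 (SD, n = 4) at 1 day and 12.74 ± 0.111 (SD, n = 4) at 4 days. Pmch, the gene of melanin-concentrating hormone, stood at 13.10 ± 0.0732 and 12.94 ± 0.117 (SD, n = 4 each), and neither passed the test below (adjusted p = 0.657 and adjusted p = 0.265).

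The hypothalamus is a small piece of brain with several close neighbours. Its lower face is covered by meninges, whose fibroblasts make collagen, proteoglycans and retinoic acid and carry many solute transporters. The pituitary stalk leaves from it, the choroid plexus and the ventricle lining lie beside it, and the thalamus and striatum lie next to it. Its neurons use peptides together with GABA and glutamate, and like all cells they hold chaperones that refold proteins. A stress to protein folding frees heat shock factors, which bind short repeats in the promoters of chaperone genes.

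Each value is a log2 expression level, and a difference is 4 days minus 1 day. A gene is called where its Benjamini-Hochberg adjusted p over 18704 genes, by limma, is under 0.05. As deposited, 2203 genes were called: 1600 were higher at 4 days (8.55% of those tested) and 603 were lower (3.22%). At an unadjusted p under 0.05 there were 3832 higher and 1617 lower. Among called genes the median difference was 0.277 for those higher and -0.215 for those lower. In all, 35 of the higher and 5 of the lower genes differed by 1.5-fold or more. For the median gene, the 95% confidence interval reached 0.136 to either side.

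The spread of values within an array moved with the groups, and the direction of the calls moved with it. The SD over genes lay between 1.933 and 1.962 in the 1-day arrays and between 1.886 and 1.907 in the 4-day arrays, with no overlap. In the celastrol arrays it lay between 1.905 and 1.932 at 1 day and between 1.88 and 1.943 at 4 days. With the genes cut by level into 5 equal groups, 471 of those called higher lay in the lowest group, 738 in the next and 26 in the highest, while of those called lower 24 lay in the lowest and 244 in the highest. A further quantile normalisation, which gives every array the same spread, left 322 genes higher (1.72%) and 495 lower (2.65%). Centring each array on its median gave 1015 higher and 934 lower, and dropping the lowest tercile of genes by level gave 619 higher and 578 lower. With the SD of each array as a covariate limma called 0 genes, with 1321 higher and 463 lower at an unadjusted p under 0.05. Because the SD did not overlap between the groups compared, this covariate nearly stands for the comparison itself. A loss of calls was therefore likely beforehand and decides nothing about single genes. In the celastrol comparison, where the ranges overlapped, calls went from 66 to 89. The number of vehicle calls was also sensitive to single arrays: it was 1016 without 1-day replicate 4, 1169 without 1-day replicate 2, 1466 without 1-day replicate 3, 1314 without 4-day replicate 3 and 1319 without 4-day replicate 2. A total of 659 genes were called in the same direction both as deposited and after the quantile normalisation, 300 higher and 359 lower, and genes of this set are preferred as examples. The median over all genes was 0.0329 as deposited and 0.00347 after the quantile normalisation.

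**Figure D1:**
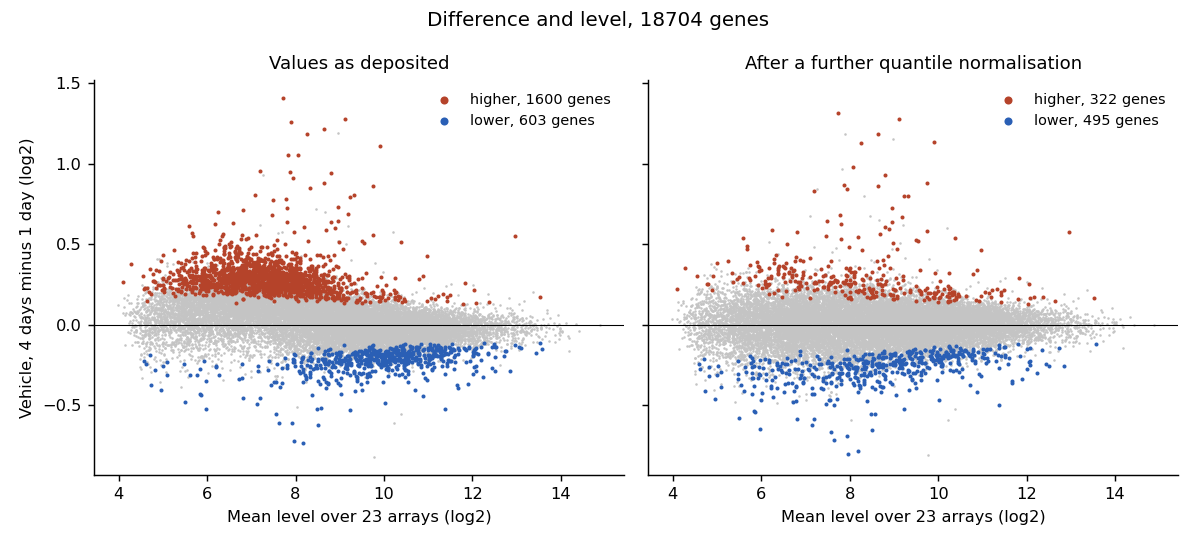
Each point is 1 of 18704 genes; the x axis is the mean log2 level over the 23 arrays and the y axis the vehicle difference, 4 days minus 1 day (log2). Red points are genes called higher and blue points genes called lower, in grey all others. As deposited (left), 1600 red points sit mostly at low levels and 603 blue points at high levels; after a further quantile normalisation (right), 322 red and 495 blue points are spread over all levels.

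The largest rise was in genes of meningeal and perivascular fibroblasts. All 25 measured genes of this list were higher at 4 days, with a median difference of 0.615, against 0.0329 over all genes, and 15 were called, set against the 8.55% of all genes called higher. After the quantile normalisation 24 were higher, the median was 0.622 and 12 were called. Fmod, which encodes the collagen-binding proteoglycan fibromodulin, read 9.07, 8.63, 8.48 and 8.92 in 1-day replicates 1 to 4 and 10.19, 10.53, 10.48 and 9.01 in 4-day replicates 1 to 4. The first 3 of the 4-day arrays lay above every 1-day array, and 4-day replicate 4 lay within the 1-day range. The group means, 10.05 ± 0.709 and 8.78 ± 0.267 (SD, n = 4 each), differed 2.42-fold (log2 difference 1.28 ± 0.264 SE, adjusted p = 0.00543). In bulk tissue such as this, more cells of a type and more RNA per cell cannot be told apart.

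Transporters of the meninges rose with the matrix genes. Slc13a4, a sulfate transporter, read 8.63, 8.16, 8.16 and 8.49 at 1 day and 9.72, 9.79, 10.15 and 8.66 at 4 days, a 2.32-fold rise (log2 difference 1.22 ± 0.224 SE, adjusted p = 0.00332). The 4-day arrays all lay above the 1-day arrays, though replicate 4 did so by the least margin. Slc6a20a, a transporter of proline and related imino acids, rose 2.15-fold (adjusted p = 0.00597). Slc13a3, which takes up dicarboxylates, rose 1.73-fold (adjusted p = 0.00392), and Slc22a6, an organic anion transporter, rose 1.72-fold (adjusted p = 0.00262). Slc6a13, a GABA and taurine transporter, rose 1.92-fold (adjusted p = 0.0155). Its call was lost without 4-day replicate 2 or without 4-day replicate 3, when the adjusted p was at most 0.0548.

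Genes that make or carry signals belonged to the same group. Aldh1a2, the enzyme that makes retinoic acid in the meninges, read 8.03, 7.65, 7.41 and 7.91 at 1 day and 9.17, 8.98, 9.02 and 8.04 at 4 days, a 2.07-fold rise (adjusted p = 0.00449). Igf2, insulin-like growth factor 2, rose 1.81-fold (adjusted p = 0.00928), and Igfbp2, a binding protein of such factors, rose 1.65-fold (adjusted p = 0.000745). Igfbp2 read between 7.41 and 7.63 at 1 day and between 7.84 and 8.53 at 4 days, so that all 4-day arrays were above all 1-day arrays. Ptgds, the prostaglandin D synthase secreted into cerebrospinal fluid, rose 1.47-fold from an already high level of 12.80 ± 0.155 to 13.35 ± 0.333 (SD, n = 4 each; adjusted p = 0.00982). Of the 10 genes of the list that did not pass, Foxc1, a transcription factor of the meninges, differed least (0.0086, adjusted p = 0.971), and Dcn, the proteoglycan decorin, differed by 0.57 (adjusted p = 0.134).

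A single 4-day array did not share the rise. Averaged over the 25 genes, the 1-day arrays read 8.66, 8.41, 8.29 and 8.61 and the 4-day arrays 9.24, 9.37, 9.37 and 8.53. All 25 genes had their lowest 4-day value in replicate 4, and in 19 of them that value was not above the highest 1-day array, while in all 25 the other 4-day arrays lay above every 1-day array. Without 4-day replicate 4 the median was 0.824 and 22 of the 25 genes were called. Without replicate 2 or replicate 3 at 4 days 11 were called. All 4-day arrays were above all 1-day arrays in 6 of the 25 genes, against 13.2% of all genes. Celastrol mice ranged from 8.43 to 8.54 at 1 day and from 8.48 to 8.84 at 4 days. The 6 h vehicle arrays read 8.333, 8.552, 8.579 and 8.997, so that these genes also varied among vehicle mice of a single time.

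**Figure D2:**
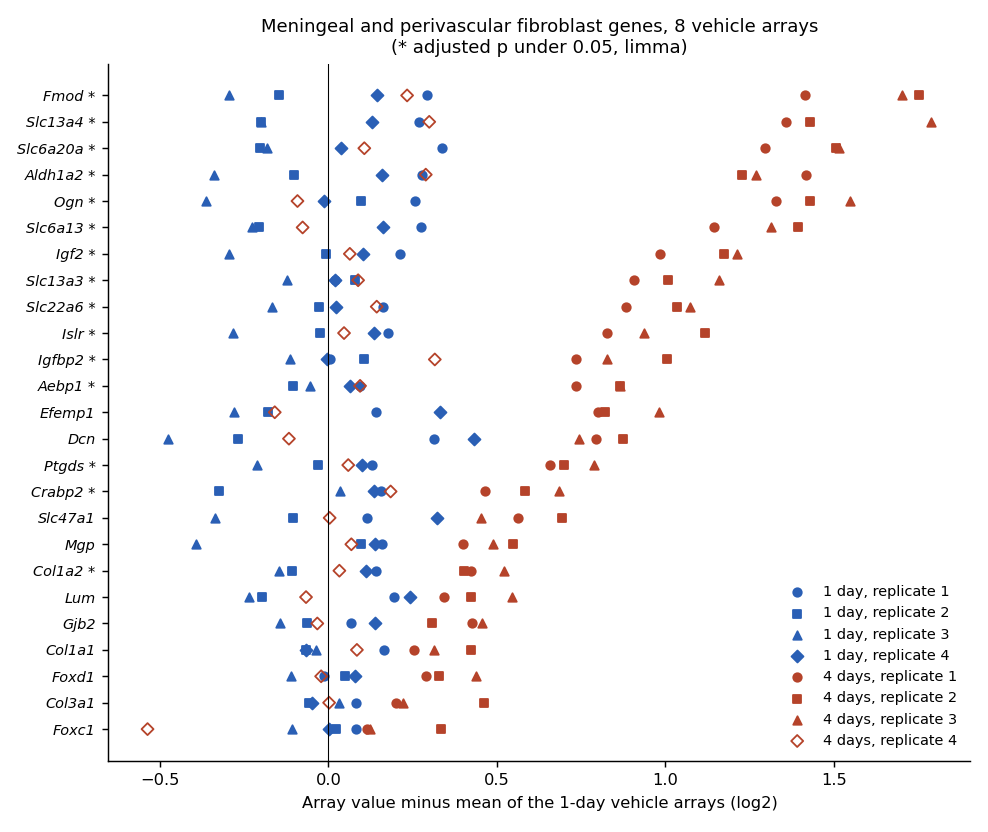
Each row is 1 of the 25 fibroblast genes, ordered by difference; the x axis is an array's log2 value minus the mean of the 1-day vehicle arrays. Blue symbols are the 4 arrays at 1 day, filled red symbols 4-day replicates 1 to 3 and open red diamonds 4-day replicate 4; asterisks mark the 15 genes with an adjusted p under 0.05. The filled red symbols lie to the right of all blue symbols in all 25 rows, and the open diamonds lie among the blue ones in most.

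The pattern reached beyond that list. Of the 35 genes called at 1.5-fold or more, 12 were members of it, and 30 of the 35 had their lowest 4-day value in replicate 4, compared with 35.8% of all genes called higher. Kcnj13, which encodes an inwardly rectifying potassium channel of transporting epithelia, showed the largest difference of all called genes. It read 7.79, 7.27, 7.10 and 7.32 at 1 day and 8.94, 9.38, 9.18 and 7.62 at 4 days, a 2.66-fold rise (log2 difference 1.41 ± 0.284 SE, adjusted p = 0.00475). Osr1, a transcription factor of embryonic mesenchyme, rose 2.27-fold (adjusted p = 0.00574). Itih2, a heavy chain that binds hyaluronan, rose 1.93-fold (adjusted p = 0.0054), and Serpind1, a thrombin inhibitor activated by heparin, rose 1.84-fold (adjusted p = 0.0044). Prg4, the lubricating proteoglycan lubricin, rose 2.40-fold (adjusted p = 0.0237), a call lost without 1-day replicate 2 or 3 or without 4-day replicate 1, 2 or 3 (adjusted p up to 0.0782). All 43 measured collagen genes, a family chosen after the values were seen, were higher as deposited, 24 of them called. After the quantile normalisation 40 were higher and 3 were called, and the family's median went from 0.237 to 0.152, and with the array SD as a covariate 27 were higher, with a median of 0.0217. In celastrol mice 18 of the 43 collagens were higher at 4 days and 0 were called.

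Markers of the other linings and vessels moved less, and their calls are set against 8.55% of all genes called higher and 3.22% called lower. Of 22 choroid plexus genes 16 were higher, with a median of 0.143, and 5 were called higher (Kcnj13, Wfikkn2, Tmem72, Kcne2 and Lbp) and 1 lower (Cab39l). Ttr, the transthyretin gene and the defining transcript of choroid plexus epithelium, did not follow Kcnj13. It read 8.50, 7.98, 7.17 and 7.55 at 1 day and 7.25, 7.69, 7.40 and 7.53 at 4 days (log2 difference -0.33, adjusted p = 0.321). With the spread made equal, the choroid plexus median was 0.0394, with 2 genes called higher and 1 lower. Of 17 pericyte and smooth muscle genes 14 were higher, with Vtn, the matrix protein vitronectin (0.28, adjusted p = 0.0204), and Des, the muscle filament desmin (0.34, adjusted p = 0.00656), called. Vtn lost its call without 1-day replicate 3 or without 4-day replicate 1, 2 or 3 (adjusted p up to 0.0725). All 10 border macrophage genes were higher and 2 were called, Pf4 and the mannose receptor gene Mrc1, but after the quantile normalisation 5 were higher and 0 called. Of 19 endothelial genes, the transporter Slco1a4 alone was called, lower by 0.23 (adjusted p = 0.0284), in 3 of the 8 fits without 1 array and not after the quantile normalisation.

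Vim, the intermediate filament vimentin of tanycytes, endothelium and fibroblasts, rose without overlap between the groups. It read 11.77, 11.73, 11.68 and 11.81 at 1 day and 12.06, 12.04, 12.04 and 11.90 at 4 days, a rise of 0.26 (adjusted p = 0.00405), and replicate 4 was again the lowest of the 4-day arrays. In celastrol mice it went from 11.77, 11.80, 11.67 and 11.76 to 12.04, 11.94, 12.12 and 11.94 (adjusted p = 0.0354), again with no overlap. Of the 13 tanycyte genes, Vim and Adm, which encodes the peptide adrenomedullin, were called, and after the quantile normalisation Vim was. As deposited, 8.55% of all genes were called higher.

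Retinoid handling moved with the meningeal genes in part. Of 20 genes of retinoid and thyroid hormone handling 14 were higher and 5 were called, set against 8.55% of all genes: Aldh1a2, Crabp2, Crym, Rbp4 and Cyp26b1. Crabp2, which carries retinoic acid to the nucleus, rose 1.40-fold (adjusted p = 0.00907), and Rbp4, the plasma retinol carrier, 1.34-fold (adjusted p = 0.0189). Rbp4 was not called without 1-day replicate 3 or 4 or 4-day replicate 2 or 3 (adjusted p up to 0.0704). Crym, a thyroid hormone-binding protein of neurons, was above every 1-day array in all 4-day arrays, replicate 4 included. It read 8.53, 8.51, 8.43 and 8.49 at 1 day and 8.94, 8.88, 8.95 and 8.81 at 4 days, a 1.32-fold rise (adjusted p = 0.0158). Its celastrol step had the same size, 0.40 (adjusted p = 0.0878). Aldh1a2 and Crabp2 are also members of the fibroblast list. After quantile normalisation 3 of the 5 stayed called and the list's median was 0.0155.

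Pituitary hormones were high in single arrays of both groups. Prl, the prolactin gene, read 9.24, 6.09, 5.95 and 6.13 at 1 day and 6.61, 10.37, 7.68 and 6.47 at 4 days (log2 difference 0.93 ± 0.976 SE, adjusted p = 0.559). Gh, the growth hormone gene, was highest in the same arrays, at 11.56 in 1-day replicate 1 and 11.67 in 4-day replicate 2, with all others between 7.63 and 8.70. Pomc, made by both pituitary cells and hypothalamic neurons, read 8.90 and 9.85 in those arrays and between 7.89 and 9.06 in the others (adjusted p = 0.342). All 12 measured pituitary genes were higher at 4 days, with a median of 0.325. Of these 3 were called, set against 8.55% of all genes called higher: the receptor gene Ghrhr and the transcription factors Lhx3 and Pitx1. Without 4-day replicate 2 the median was 0.153. A single gene was called without that array, without 4-day replicate 1 or without 1-day replicate 4, and 2 genes without any other of the 8 arrays. With the array SD as a covariate 7 of the 12 were higher and 0 called, and after the quantile normalisation 11 were higher and 0 called. When the 4 vehicle arrays in which Prl exceeded 9 were dropped, 2 of them at 6 h, limma gave 930 genes called higher and 309 lower, and the fibroblast list then kept a median of 0.592 with 13 called.

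**Figure D3:**
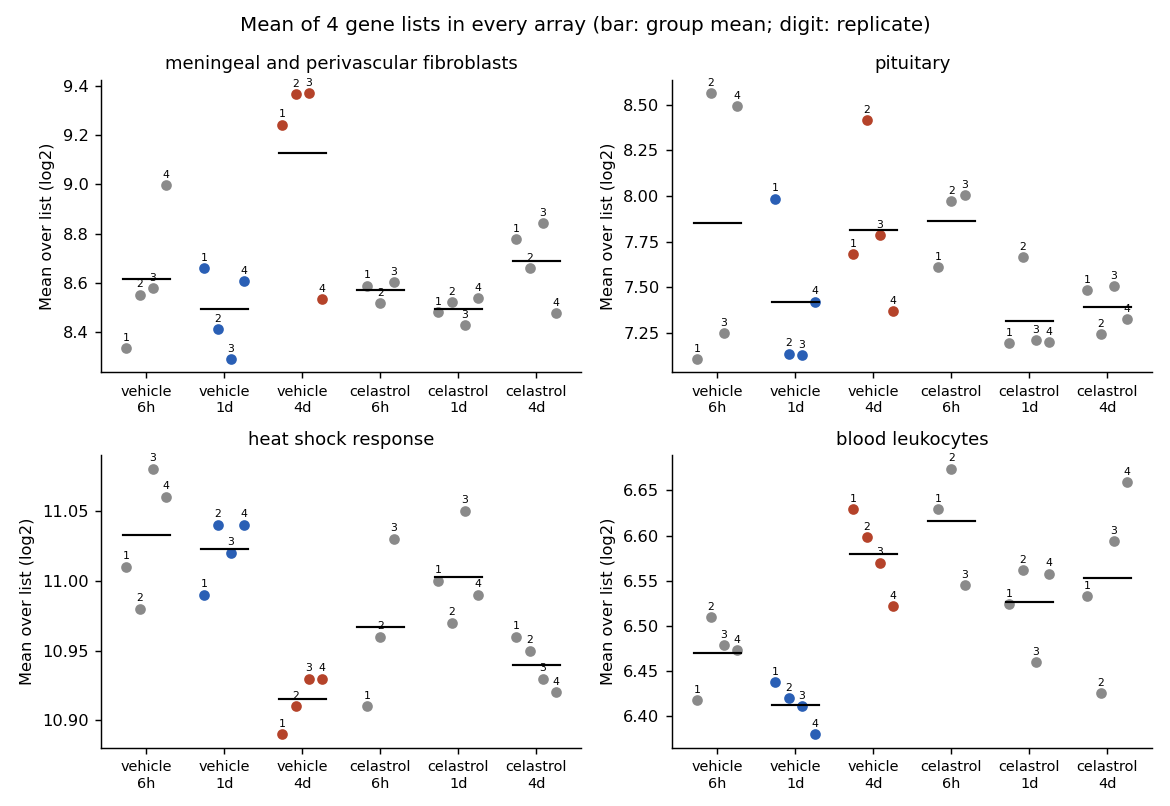
Mean log2 level over the members of 4 gene lists (y axis) in each of the 23 arrays, by group (x axis), with digits for the replicate and bars for group means; vehicle arrays at 1 day are blue, at 4 days red, all others grey. Fibroblast genes are high in 3 of the 4 arrays at 4 days, and pituitary genes in 1 array of each group compared. Heat shock genes read 10.89 to 10.93 at 4 days and 10.99 to 11.04 at 1 day without overlap, and leukocyte genes 6.52 to 6.63 and 6.38 to 6.44.

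Chaperone genes fell. Of 21 measured heat shock genes 18 were lower at 4 days, with a median of -0.0992, and 5 were called lower, set against 3.22% of all genes, and 1 was called higher. In 12 of the 21 all 4-day arrays were below all 1-day arrays, against 7.63% of all genes. Averaged over the list, the arrays read 10.99, 11.04, 11.02 and 11.04 at 1 day and 10.89, 10.91, 10.93 and 10.93 at 4 days. These averages lie within the highest of the 5 level groups, where 6.52% of genes were called lower, though members differ in level. Replicate 4 did not stand apart here. Vehicle arrays at 6 h read from 10.98 to 11.08, the celastrol arrays from 10.97 to 11.05 at 1 day and from 10.92 to 10.96 at 4 days.

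Chordc1, a co-chaperone of HSP90 with zinc-binding domains, gave the clearest single difference. It read 10.32, 10.33, 10.12 and 10.31 at 1 day and 9.81, 9.76, 9.72 and 9.84 at 4 days, with no overlap. The means, 10.27 ± 0.102 and 9.78 ± 0.0509 (SD, n = 4 each), differed 1.40-fold (log2 difference -0.49 ± 0.0547 SE, adjusted p = 5.74e-05). The call held in all 8 fits that left out 1 array (adjusted p up to 0.000614) and after the quantile normalisation (adjusted p = 0.00035). Vehicle mice at 6 h read 10.22, 10.19, 10.16 and 10.13, near the 1-day level. In celastrol mice Chordc1 also fell, from 10.10, 10.20, 10.17 and 10.11 to 9.80, 9.78, 9.86 and 9.65 (log2 difference -0.37, adjusted p = 0.0135).

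Further members fell by smaller steps. Hsf2, a heat shock transcription factor, read 9.51, 9.65, 9.50 and 9.63 at 1 day and 9.21, 9.11, 9.24 and 9.33 at 4 days, a fall of 1.27-fold (adjusted p = 0.00405) that held in all 8 fits without 1 array. Hsp90aa1, the inducible cytosolic HSP90, went from 13.12 ± 0.0329 to 12.98 ± 0.0269 (SD, n = 4 each; adjusted p = 0.0178), a call lost without 1-day replicate 4 (adjusted p = 0.0603). Dnaja1, an HSP40 co-chaperone, fell by 0.19 (adjusted p = 0.0313), and Hspd1, the mitochondrial chaperonin, fell by 0.18 (adjusted p = 0.0349). Each of the last 2 was called in 2 of the 8 fits without 1 array, Dnaja1 without 1-day replicate 2 or 4-day replicate 1 and Hspd1 without 1-day replicate 1 or 4-day replicate 4 (adjusted p up to 0.0905 and 0.0943 in the others). Bag3, which couples HSP70 to autophagy, rose by 0.21 (adjusted p = 0.0318), a call kept without 4-day replicate 1 and lost without any other array (adjusted p up to 0.0996). After the quantile normalisation Chordc1 and Hsf2 were called and the list's median was -0.0652.

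Because heat shock factors bind inverted repeats of GAA, the promoters of the list were searched for GAANNTTC, which reads the same on both strands, in 300 bases from 250 before to 50 after the start (RefSeq, GRCm38.p6). Of the 21 genes 17 had a promoter in the table and 9 of these (52.9%) held the motif, against 2442 of 27025 genes (9.0%). The list was drawn up as heat shock genes, so a high share was likely beforehand. It says nothing about the fall at 4 days. A gene with several annotated start sites counted if any of its windows held the motif. Of the 4 genes with a promoter that were called lower, 3 held it, and their stretches around it follow, 5′ to 3′, with the motif in capitals, because these are the fallen genes in which it was found. Chordc1 (chr9:18292183-18292284, plus strand) holds 2 copies next to each other, the first at position -4 from the start site. Dnaja1 (chr4:40722264-40722355, plus strand) and Hspd1 (chr1:55088060-55088151, minus strand) hold 1 each, at positions -124 and -139. Both of these genes also have other annotated start sites, whose windows held no copy.
Chordc1: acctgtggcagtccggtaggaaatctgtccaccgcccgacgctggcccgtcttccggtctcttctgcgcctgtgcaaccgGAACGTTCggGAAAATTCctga
Dnaja1: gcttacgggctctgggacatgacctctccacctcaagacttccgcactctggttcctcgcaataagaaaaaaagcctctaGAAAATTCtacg
Hspd1: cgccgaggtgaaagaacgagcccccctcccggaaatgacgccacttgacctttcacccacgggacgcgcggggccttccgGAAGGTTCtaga
The Hspd1 stretch lies in the shared promoter of Hspd1 and Hspe1, its partner chaperonin (log2 difference -0.21, adjusted p = 0.207), which is read from the other strand. Hsf2 held no copy. Genes not called lower held the motif too. Bag3, which rose, held 1 copy after its start site. Hspb1 held 2 copies before its start site and did not pass (log2 difference 0.20, limma adjusted p = 0.0784). Fkbp4, Hspa1a, Hspe1 and Hsph1, not called either, held 1 each. A match is a run of letters in these windows and no measure of binding.

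Outside the chaperones, the smallest p-values among lower genes belonged to the following genes and to Senp8. Mindy2, which removes ubiquitin chains, read 11.70, 11.61, 11.61 and 11.67 at 1 day and 11.26, 11.09, 11.02 and 11.13 at 4 days, a fall of 1.44-fold (log2 difference -0.53 ± 0.0582 SE, adjusted p = 5.74e-05). Ugcg, the enzyme that makes glucosylceramide, fell 1.28-fold from 10.67 ± 0.0381 to 10.31 ± 0.0668 (SD, n = 4 each; adjusted p = 0.000619). Chpt1, which makes phosphatidylcholine, fell 1.21-fold (adjusted p = 0.000745). The filament protein Septin7 fell 1.29-fold, the actin-capping subunit Capza1 1.24-fold and the transcription factor subunit Taf2 1.25-fold, each with an adjusted p of 0.000745. The uncharacterised transcript C130030K03Rik fell 1.44-fold (adjusted p = 0.000951). Prdx2, a peroxide-reducing enzyme abundant in neurons, fell 1.22-fold (adjusted p = 0.00129). For each of these 8 genes all 4-day arrays were below all 1-day arrays, as in 7.63% of all genes. The call held in all 8 fits without 1 array, and it held after the quantile normalisation. The genes were chosen by small p in the same arrays, which makes such results likely, so these add no separate support.

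The largest falls were in genes of lower level. Zfp931, a zinc finger gene, read 8.39, 8.63, 8.48 and 8.80 at 1 day and 7.72, 7.71, 8.14 and 7.82 at 4 days, a fall of 1.66-fold (adjusted p = 0.0115). The 6 h vehicle arrays of this gene spread widely, at 8.52, 8.02, 9.23 and 8.24. AB010352 fell 1.65-fold (adjusted p = 0.00131) and Anp32-ps 1.54-fold (adjusted p = 0.00385), each called in all 8 fits without 1 array. Senp8, a protease that acts on the ubiquitin-like protein NEDD8, fell 1.53-fold, from 8.18 ± 0.0653 to 7.57 ± 0.182 (SD, n = 4 each; adjusted p = 0.000871). Rrs1, a ribosome assembly factor, fell 1.43-fold (adjusted p = 0.00344), while in celastrol mice it differed by 0.07 (adjusted p = 0.771). The difference between these steps did not pass its own test (adjusted p = 0.0802).

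Zinc finger genes made up a visible share of the fallers. Of 332 measured genes named Zfp, a family chosen after the values were seen, 38 were called lower and 12 higher, set against 3.22% and 8.55% of all genes, and after the quantile normalisation 38 were lower and 0 higher. The family's median was -0.0255 as deposited and -0.0357 after the quantile normalisation, but 0.0253 with the array SD as a covariate, when 0 were called. Zfp442 fell 1.52-fold (adjusted p = 0.0133), Zfp738 fell 1.44-fold (adjusted p = 0.00437) and Zfp455 fell 1.37-fold (adjusted p = 0.00428), each with all 4-day arrays below all 1-day arrays. Many of these genes lie in clusters of close copies, so probes may read more than 1 of them. In celastrol mice 1 Zfp gene was called higher and 0 lower between the same days.

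Some receptor subunits of fast transmission fell by small steps. Of 28 GABA, glycine and glutamate receptor subunits 19 were lower, with a median of -0.0696. Set against 3.22% and 8.55% of all genes, 5 were called lower and 0 higher. The list averaged 11.05 at 1 day and 11 at 4 days. That lies within the highest of the 5 level groups, where 6.52% were called lower and 0.695% higher. Gabrb2, a GABA-A receptor subunit, read 11.97, 11.98, 11.94 and 12.04 at 1 day and 11.72, 11.71, 11.73 and 11.83 at 4 days, a fall of 1.18-fold (adjusted p = 0.00585) that held in all 8 fits without 1 array. Gria2, the AMPA receptor subunit that limits calcium entry, fell by 0.16 (adjusted p = 0.0155) and Gabrg1 fell by 0.22 (adjusted p = 0.0179), and both calls were lost without 4-day replicate 2 (adjusted p = 0.0502 and 0.0518). Glrb, the glycine receptor beta subunit, and Gabra3 were called with adjusted p = 0.0239 and adjusted p = 0.0471. Gabra3 lost the call without any 1 of the 8 arrays (adjusted p up to 0.131), and Glrb without 1-day replicate 2 or 4 or 4-day replicate 2 (up to 0.0753). With equal spread Gabrb2 remained called and the median was -0.0377. Of 15 genes expressed by all neurons 10 were lower and 1 was called, the neurofilament gene Nefl (-0.14, adjusted p = 0.0331), in 3 of the 8 fits without 1 array.

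Sterol genes lay slightly lower. Of 29 genes of cholesterol and fatty acid synthesis 19 were lower, with a median of -0.0700. Set against 3.22% of all genes, 3 of the 29 were called lower. The list averaged 10.69 at 1 day and 10.63 at 4 days. That lies within the highest of the 5 level groups, where 6.52% were called lower. They were Hmgcs1, an early enzyme of the pathway (-0.17, adjusted p = 0.0293), Ebp, a late isomerase (-0.18, adjusted p = 0.0344), and Insig1, the sterol sensor partner of SCAP (-0.21, adjusted p = 0.0373). None of the 3 was called in every fit without 1 array: Hmgcs1 and Insig1 were called in 2 of the 8 and Ebp in 3. The list's median was -0.0339 after the quantile normalisation, with 1 gene called, and 0.0248 with the array SD as a covariate. In celastrol mice the median was 0.0269, with 19 of 29 higher.

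Glial lists held few calls, save that 2 of 12 oligodendrocyte precursor genes were called lower, and 1 after the quantile normalisation. Over all genes 8.55% were called higher and 3.22% lower. Of 12 oligodendrocyte precursor genes Gpr17, a receptor of cells about to mature, fell 1.17-fold from 9.19 ± 0.0659 to 8.97 ± 0.0624 (SD, n = 4 each; adjusted p = 0.0129) and Olig1 fell 1.10-fold (adjusted p = 0.0262), the latter in 2 of the 8 fits without 1 array. Of 21 astrocyte genes Mlc1, a membrane protein of astrocyte endfeet, was called (-0.15, adjusted p = 0.0409) and lost the call without any 1 of the 8 arrays (adjusted p up to 0.105). Among 18 genes of oligodendrocytes and myelin 16 were lower and 0 called, and of 19 microglial genes 9 were higher and 0 called.

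Most members of the immune and inflammatory lists were higher as deposited, and few of these calls held after the quantile normalisation. Of 17 blood leukocyte genes 15 were higher, with a median of 0.161, and 5 were called. Cd8a, the co-receptor of cytotoxic T cells, read 7.07, 7.13, 6.92 and 7.07 at 1 day and 7.35, 7.47, 7.30 and 7.48 at 4 days, a 1.28-fold rise (adjusted p = 0.00328). Nkg7 rose 1.30-fold (adjusted p = 0.00853) and the T cell receptor chain Cd3e rose 1.22-fold (adjusted p = 0.013), both in all 8 fits without 1 array. The chemokine receptor Ccr7 and the neutrophil gene Retnlg were called in 2 and 4 of the 8. After the quantile normalisation 9 of the 17 were higher, the median was 0.0791 and Cd8a alone was called. With the array SD as a covariate the median was -0.0103. The list averaged between 6.38 and 6.63 in these arrays, within the lowest of the 5 level groups, where 12.6% were called higher. Its members differ in level: the Cd8a values lie within the next group (6.78 to 8.03), where 19.7% were. The share over all genes was 8.55%.

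NF-kB targets followed the same course. All 26 measured members were higher, with a median of 0.184, and 2 were called, a share no larger than the 8.55% of all genes called higher. These were Ccl4, a chemokine (0.33, adjusted p = 0.0111), and Il1b, interleukin-1 beta (0.36, adjusted p = 0.0234). Once the spread was equal, 20 of 26 were higher, the median was 0.0615 and 0 were called. The Il1b call was kept in 3 of the 8 fits without 1 array and the Ccl4 call in all 8. Of 13 antigen presentation genes 12 were higher and 4 were called, among them H2-Aa and Cd74 of MHC class II, Cd74 in 2 of the 8 fits without 1 array, and 0 after the quantile normalisation. H2-Aa read 6.66, 6.45, 6.41 and 6.64 at 1 day and 6.99, 7.14, 7.06 and 6.64 at 4 days, with replicate 4 again in the 1-day range. Its call (adjusted p = 0.0158) was lost without 4-day replicate 2 (adjusted p = 0.0545). Of 27 acute-phase genes 20 were higher and 2 were called, Timp1 (0.30, adjusted p = 0.024) and Lrg1 (0.39, adjusted p = 0.031), each in 2 of the 8 fits without 1 array and neither after the quantile normalisation. That share, too, is no larger than the 8.55% of all genes called higher. Lcn2, the iron-binding protein lipocalin 2, read 6.46, 6.47, 6.50 and 6.47 at 1 day and 7.01, 7.12, 7.35 and 6.89 at 4 days. The groups did not overlap, but the difference of 0.62 ± 0.226 SE did not pass (adjusted p = 0.0752), where the fit shares 1 estimate of spread over all groups and the celastrol arrays at 1 day ranged from 7.34 to 8.78. At 6 h the vehicle arrays read 6.86, 7.35, 7.23 and 7.62, all above the 1-day arrays. Of 17 interferon genes 1 was called, Bst2 (0.29, adjusted p = 0.0184), a call lost without 1-day replicate 4 or 4-day replicate 2 (adjusted p up to 0.0758). After the quantile normalisation 0 of the 17 were called higher and 1 lower. Ifit3b, which is not in that list, was called lower. The call was kept in 7 of the 8 fits without 1 array, where its log2 difference ranged from -0.63 to -0.45.

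Sensory receptor families read the same way. Of 1019 odorant receptor genes, a family chosen after the values were seen, 146 were called higher and 2 lower, with a median of 0.12. In the lowest of the 5 level groups 12.6% of all genes were called higher and in the next 19.7%, against 8.55% overall. Under equal spread 24 were higher and 9 lower with a median of 0.0291, and for 164 vomeronasal receptor genes the median went from 0.0641 to -0.00341. Olfr1393 was the odorant receptor with the clearest difference. It read 7.25, 6.73, 7.17 and 6.92 at 1 day and 7.77, 7.80, 7.86 and 7.74 at 4 days, a 1.71-fold rise (adjusted p = 5.74e-05), and kept an adjusted p of 0.000512 after the quantile normalisation. Slc12a3, the thiazide-sensitive sodium chloride transporter, went from 7.24 ± 0.0991 to 7.73 ± 0.0829 (SD, n = 4 each; adjusted p = 0.000256), and the beta-defensin Defb25 rose 1.35-fold (adjusted p = 0.000582).

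Clock, activity and stress hormone lists held few calls, while over all genes 8.55% were called higher and 3.22% lower. Of 19 measured clock genes 10 were higher and 0 were called by limma (0 after the quantile normalisation), with a median of 0.0124. Per1 differed by 0.03 ± 0.0732 SE (adjusted p = 0.847), Per2 by 0.08 ± 0.0598 SE (adjusted p = 0.409), Nr1d1 by 0.06 ± 0.0637 SE (adjusted p = 0.586) and Dbp by -0.02 ± 0.0627 SE (adjusted p = 0.854). Bhlhe40, a repressor in the clock's feedback loops, differed by -0.24 ± 0.0822 SE (adjusted p = 0.0558), and its relative Bhlhe41 by -0.16 ± 0.0632 SE (adjusted p = 0.106), with all 4-day arrays lower. Each array of Dbp in the groups compared lay between 10.57 and 10.70. The hour of killing is not stated, and its part in these values was not tested. Of 25 immediate early genes Npas4, a transcription factor induced by neuronal activity, was called lower (-0.23, adjusted p = 0.0389), a call kept without 1-day replicate 1 alone (adjusted p up to 0.134), and Fos differed by 0.17 (adjusted p = 0.386). Of 27 glucocorticoid response genes 19 were higher and 2 were called, a share no larger than the 8.55% of all genes called higher. Klf15, a transcription factor induced by glucocorticoids, read 9.68, 9.59, 9.73 and 9.61 at 1 day and 9.84, 9.87, 9.87 and 9.86 at 4 days (1.15-fold, adjusted p = 0.0184), and lost the call without 1-day replicate 2 or 4 (adjusted p up to 0.0617). Sult1a1 rose 1.23-fold (adjusted p = 0.0369), in 2 of the 8 fits without 1 array. Fkbp5 (0.21, adjusted p = 0.121) and Sgk1 (0.08, adjusted p = 0.657), textbook targets of the same receptor, did not pass.

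Feeding genes did not pass either. Of 28 genes of the feeding circuit 14 were higher and 0 were called by limma as deposited, with a median of 0.0025, and 1 was called lower after the quantile normalisation. Npy, the hunger peptide of the arcuate nucleus, read 11.41, 11.33, 11.28 and 11.33 at 1 day and 11.59, 11.56, 11.66 and 11.54 at 4 days. The arrays did not overlap, and the difference of 0.25 ± 0.112 SE did not pass (adjusted p = 0.135). Cartpt differed by 0.10 (adjusted p = 0.385) and Lepr, the mutated leptin receptor gene, by -0.02 (adjusted p = 0.887). Oxt, the oxytocin gene, differed by 0.19 with no overlap (adjusted p = 0.102), and in celastrol mice it rose by 0.35 (adjusted p = 0.0406). Of 30 other peptide genes Qrfp was called higher (0.24, adjusted p = 0.0204) and Adcyap1, the peptide PACAP, lower (-0.18, adjusted p = 0.0265), Qrfp in 6 and Adcyap1 in 4 of the 8 fits without 1 array. The shares over all genes were 8.55% called higher and 3.22% called lower.

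Most neighbouring tissue and housekeeping lists gave 0 calls, while the striatal, endoplasmic reticulum stress, cell cycle and ependymal lists gave between 1 and 4. The striatal list averaged 8.996 to 9.043 in the 1-day arrays and 9.09 to 9.15 in the 4-day arrays, without overlap. Among all genes 8.55% were called higher and 3.22% lower. Of 14 striatal genes 10 were higher and 2 were called in both scalings, Rgs9, a regulator of dopamine signalling (0.17, adjusted p = 0.00843), and Sh3rf2 (0.39, adjusted p = 0.00392). In thalamus (16 genes), cortex and hippocampus (13), hypothalamic transcription factors (23), the proteasome (31), the respiratory chain (31), cytosolic ribosomal proteins (24), the tricarboxylic acid cycle (17), NRF2 targets (15) and red blood cells (7) limma called 0 genes. Over all 13 lists with 0 calls, clock, feeding, myelin and microglial genes included, 16 of 261 members were higher and 16 lower at an unadjusted p under 0.05. Of 21 endoplasmic reticulum stress genes Herpud1 (0.15, adjusted p = 0.0329) and Ddit3 (0.21, adjusted p = 0.0485) were called higher and Dnajb9, a chaperone of that compartment, lower (-0.23, adjusted p = 0.00656). Of these 3, Dnajb9 held in all 8 fits without 1 array and Ddit3 in 0. Of 19 cell cycle genes 4 were called higher, Top2a, Aurkb, Birc5 and Mcm5, and 1, Top2a, after the quantile normalisation, when the median went from 0.0962 to -0.00212. Of 13 ependymal genes Mia alone was called, and 0 after the quantile normalisation.

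**Figure D4:**
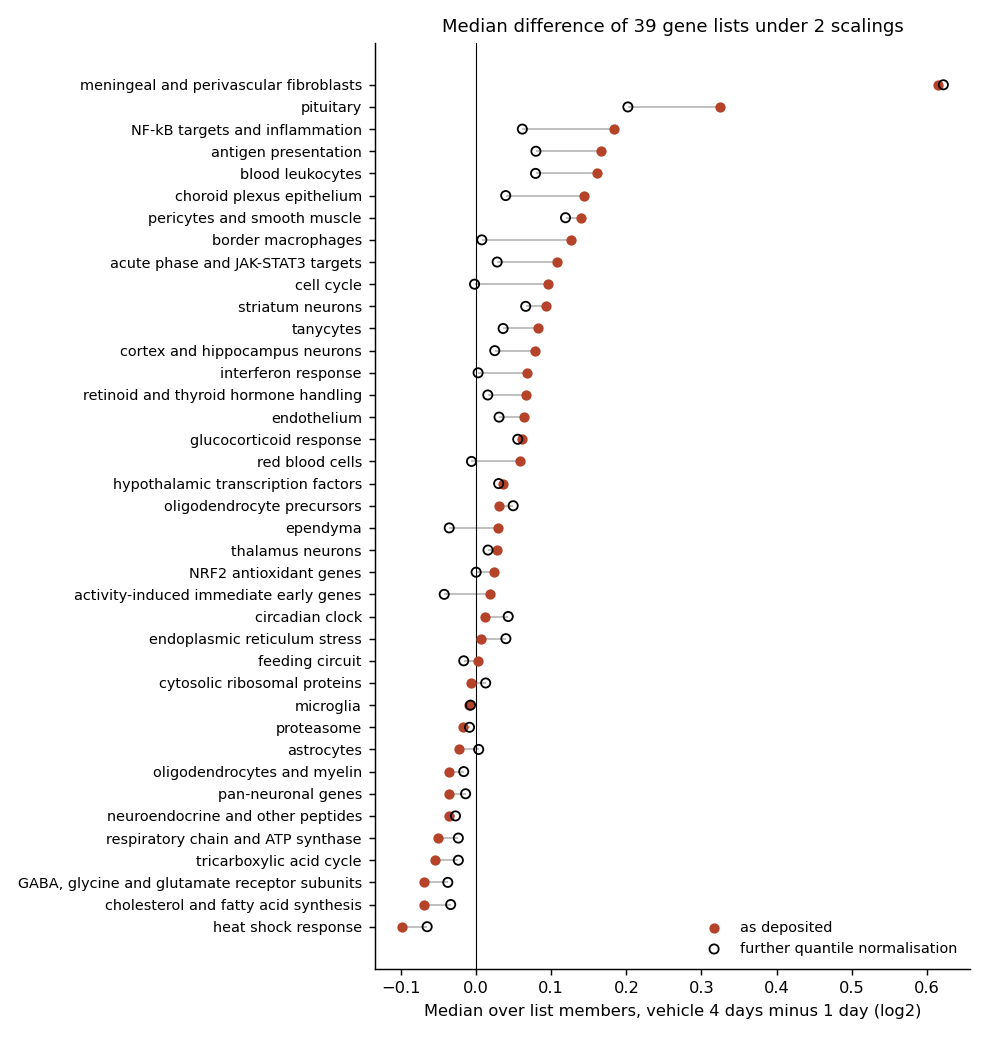
Median difference over the members of each of 39 gene lists (x axis, log2, vehicle 4 days minus 1 day), as deposited (red) and after a further quantile normalisation (open). Fibroblast genes stand at 0.615 and 0.622, heat shock genes at -0.0992 and -0.0652, and most lists above 0.1 as deposited move toward 0.

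The same days were then compared in celastrol mice, which share no array with the vehicle comparison. Both comparisons use the same estimate of each gene's spread, from 1 fit, so their calls are not independent. There 66 genes were called (0.353%), 40 higher and 26 lower, and between 3 and 7 when any 1 of the celastrol arrays at 1 day was left out. Of these, 26 were also called in vehicle mice, 24 in the same direction and 2 (Hs3st6 and Tex22) in the opposite direction. Of the 1600 genes called higher in vehicle mice 1192 were above 0 in celastrol mice (74.5%, against 57.8% of all genes), and of the 603 called lower 496 were below 0 (82.3%, against 42.2%). These genes were chosen in vehicle mice, and their median step in celastrol mice was 0.0689 for the former and -0.0671 for the latter, against 0.277 and -0.215 in vehicle mice. Of the 659 genes called in both scalings 542 (82.2%) had the same sign in celastrol mice. At 6 h the vehicle mean was nearer to the 1-day than to the 4-day mean for 985 of the 1600 higher and 488 of the 603 lower genes.

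Several genes fell or rose alike in both sets of animals. Hacd2, an enzyme of fatty acid elongation, read 12.17, 12.16, 12.12 and 12.13 at 1 day and 11.88, 11.91, 11.87 and 11.89 at 4 days with vehicle (adjusted p = 0.00134). With celastrol it went from 12.09, 12.08, 12.13 and 12.16 to 11.93, 11.93, 11.93 and 11.89 (adjusted p = 0.0389). Rab2a, a small GTPase of traffic between endoplasmic reticulum and Golgi, fell by 0.28 with vehicle (adjusted p = 0.00712) and by 0.30 with celastrol (adjusted p = 0.0389). Phldb2, a membrane and cytoskeleton adaptor, rose by 0.27 (adjusted p = 0.00289) and 0.28 (adjusted p = 0.0255), and S100a3, a calcium-binding protein, rose by 0.39 (adjusted p = 0.00267) and 0.34 (adjusted p = 0.0389). In vehicle mice these 4 genes kept their calls in all 8 fits without 1 array and after the quantile normalisation, and all 4-day arrays lay on the same side of all 1-day arrays. They were picked from genes called in these same arrays.

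The probe set of Mir431, a microRNA gene of chromosome 12, was higher at 4 days in both sets of animals. With vehicle it read 8.66, 8.49, 8.53 and 8.45 at 1 day and 9.01, 8.84, 8.96 and 9.03 at 4 days, a 1.34-fold rise (adjusted p = 0.002). With celastrol it went from 8.80, 8.68, 8.45 and 8.69 to 9.02, 8.99, 9.08 and 9.10 (adjusted p = 0.0277). The array reads whole transcripts, so the level of the mature microRNAs was not measured. The mature sequences that the gene gives rise to (RefSeq, GRCm38.p6) are shown because Mir431 was the microRNA gene among the 24 that moved alike, with the seed, bases 2 to 8, in capitals.
mmu-miR-431-5p: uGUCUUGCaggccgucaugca
mmu-miR-431-3p: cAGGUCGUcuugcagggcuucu

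**Figure D5:**
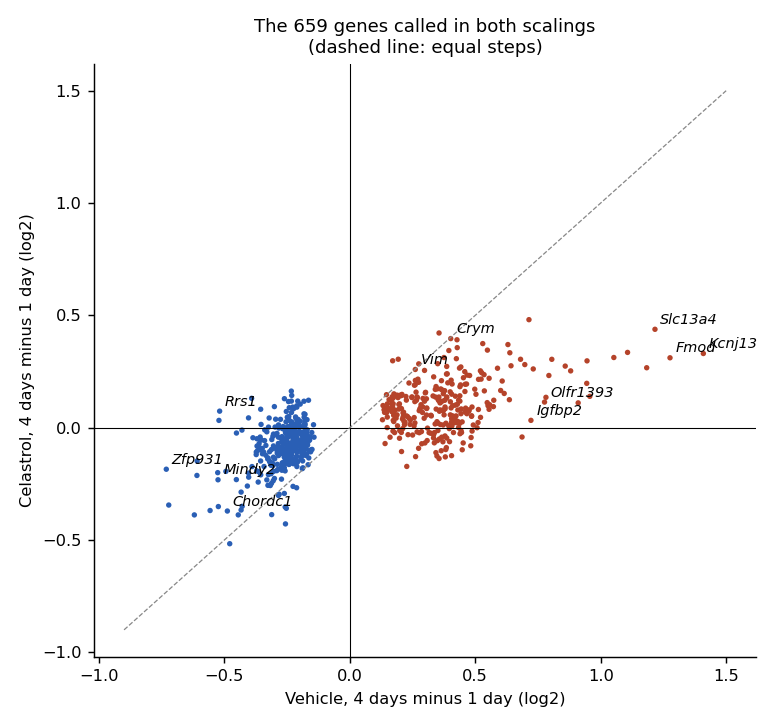
Each point is 1 of the 659 genes called in both scalings; the x axis is the difference of 4 days minus 1 day in vehicle mice and the y axis the same difference in celastrol mice (log2), red for genes higher and blue for genes lower with vehicle. Of the points 542 lie on the same side of 0 on both axes. Fibroblast genes such as Fmod and Slc13a4 lie far below the dashed line of equal steps, and Chordc1 and Vim near it.

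The difference between the vehicle and the celastrol step was tested by an interaction term. It was called for 17 genes (0.0909%), all with a more positive step in vehicle mice, among them Il25, a cytokine (0.53, adjusted p = 0.0176), Tmprss13, a membrane protease (0.56, adjusted p = 0.0176), Slc12a3 (0.48, adjusted p = 0.0283) and Cd8a (0.49, adjusted p = 0.0297). After the quantile normalisation limma called 0, with 1852 at an unadjusted p under 0.05, and dropping the 4 arrays of high Prl also gave 0 (2373 at an unadjusted p under 0.05). None of the 25 fibroblast genes passed this test: the interaction was 0.97 for Fmod (adjusted p = 0.256) and 0.69 for Igfbp2 (adjusted p = 0.0647). For the channel gene Kcnj13 it was 1.08 (adjusted p = 0.239). In celastrol mice 22 of the 25 fibroblast genes were higher at 4 days, with a median of 0.201 and 0 called, and Fmod went from 8.86, 8.86, 8.81 and 8.98 to 9.26, 9.23, 9.61 and 8.65.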

How the data were processed

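Hypothalamic total RNA of each sample was read on an Affymetrix mouse array for whole transcripts. The authors deposited log2 values for each probe set and, per the submitters' processing notes, used RMA to make them. No source used here states the software version, which arrays were normalised as a set, or a filter. Of 23492 probe sets 20228 named 1 gene, 1399 several and 1865 none in the platform's annotation table, with symbols updated by gene ID through the RefSeq table of GRCm38.p6. For the 809 genes with more than 1 probe set the one with the highest mean was kept, which gave 18704 genes, tested with no filter on level.

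With limma 3.58.1 in R 4.3.3, the means of the 6 groups were estimated from the 23 arrays together (17 residual and 5.424 prior degrees of freedom, eBayes without trend). P-values were adjusted by Benjamini-Hochberg over all genes at 0.05. On simulated data it recovered 49.3%, 92.5% and 100% of changes of 0.25, 0.5 and 1 in this comparison, and 9.04% of its calls there were false. The simulated noise was independent between genes, with no difference in array SD between the groups. The real arrays had such a difference, so these shares do not describe the calls made here. Precision is limited by how many arrays each group has.

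The comparison, the 39 gene lists and the tests were chosen with earlier results of these data known. Lists are described by counts and medians, with no test. Genes named were taken from the 15 largest differences and 10 smallest p-values in each direction among called genes, of which some are left out. Others came from up to 4 members of smallest p per list, and from a set of clock, stress, feeding and hormone genes. Further called list members, genes called in the celastrol step or the interaction and families by symbol were chosen after their values were seen. So were Foxc1, Dcn, Hspe1, Fkbp4, Hspa1a, Hspb1 and Hsph1.

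Alternatives were a robust variance trend, a filter on the lowest tercile, a further quantile normalisation, median centring, the replicate number as a block, fewer arrays in the fit, array weights, every probe set and leaving out each array. The array SD as a covariate and dropping the 4 vehicle arrays in which Prl exceeded 9 were added after the data were seen.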

Additional observations from a re-analysis of the deposited data

Results flagged for a closer look

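Single arrays stood apart from the other 3 of their group, by Dixon's ratio of the gap to the group's range (95% critical value for 4 samples), in 25 of the 260 groups of genes and list means tested; chance gives about 1 in 20. At 4 days the array apart was replicate 4 for the fibroblast list mean (0.848) and for Aldh1a2 (0.831), Ogn (0.865), Osr1 (0.888), Serpind1 (0.926), Slc6a12 (0.850), Slc6a13 (0.833) and Slc6a20a (0.848). Vim (0.848) also stood apart in replicate 4 at 4 days. Further 4-day groups with an array apart were the antigen presentation mean (0.889), Ctdsp1 (0.831), Mss51 (0.894), Pxmp2 (0.937), Slc35g3 (0.923) and Socs3 (0.839). Gh stood apart at 4 days in replicate 2 (0.864) and at 1 day in replicate 1 (0.891), where Prl did too (0.944). Other 1-day groups with an array apart were Cartpt (0.883), Chordc1 (0.884, replicate 3, still above all 4-day arrays), Fkbp5 (0.914), Nr1d1 (0.831), Zfp738 (0.886) and the means of cell cycle (0.882) and thalamus genes (0.865).

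The step from 1 to 4 days differed between vehicle and celastrol mice by the interaction test (limma) in 17 genes, vehicle minus celastrol step in log2. These were 5730522E02Rik (0.40), C2cd4c (0.51), Cd300c2 (0.46), Cd8a (0.49), Cilp2 (0.47), Dhrs13os (0.45), Galnt15 (0.48), Hs3st6 (0.43), Il25 (0.53), Lif (0.47), Olfr1393 (0.66), Olfr898 (0.49), Rnf207 (0.47), Scarf2 (0.37), Slc12a3 (0.48), Tex22 (0.43) and Tmprss13 (0.56). The quantile normalisation left 0 of them called, and the spread within arrays moved with the vehicle groups as given above. Its part in the result was not tested for single genes.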

How the results depend on the processing

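Against 2203 genes called (1600 higher, 603 lower), dropping the lowest tercile by level gave 1197 (619 higher), the quantile normalisation 817 (322 higher), median centring 1015 higher and 934 lower, and array weights 3627 (2526 and 1101). Of the alternatives added after the data were seen, the array SD as a covariate gave 0 (0 higher, 0 lower; 1784 at an unadjusted p under 0.05), and leaving out the arrays with Prl above 9 gave 1239 (930 and 309). The SD covariate lies close to the vehicle comparison itself, so calls lost or signs turned under it decide nothing about single genes. Leaving out 1 of the 8 vehicle arrays compared gave 1016 to 1874 (768 to 1403 higher, 248 to 541 lower), and leaving out 1 celastrol array 2017 to 2457. In celastrol mice the count of 66 became 24 without the Prl arrays and 3 to 77 without 1 of its own 8 arrays, the lowest without 1-day replicate 4, and 18 to 87 without 1 vehicle array. The 17 interaction calls became 0 under quantile normalisation, the SD covariate and without the Prl arrays (1852, 1162 and 2373 at an unadjusted p under 0.05), and 7 to 175 without 1 of the 16 arrays, the highest without celastrol 4-day replicate 4. The cause was not tested.

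With the replicate block the vehicle count was 2089 and the celastrol count 39. Residuals of same-numbered vehicle arrays correlated at 0.0921, -0.0419, 0.0101 and -0.00733, so the numbers are not taken as pairs. Arf1, Col1a2, Ctdsp1, Cyp2a12, Ddit3, Mia, Mlc1 and Olfr1261 lost their calls under the block.

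Signs that turned included the following. With the SD covariate Ccr7 was -0.024 and the medians were 0.0131 for the respiratory chain, 0.0381 for the tricarboxylic acid cycle, 0.0248 for cholesterol synthesis, -0.0103 for leukocytes, -0.00627 for hypothalamic transcription factors and 0.0117 for pan-neuronal genes. Under quantile normalisation the cell cycle median was -0.00212 and that of red blood cells -0.00619; medians near 0 also turned for ependyma (-0.0358), immediate early genes (-0.0425), feeding (-0.0165), astrocytes (0.00343) and ribosomal proteins (0.0127). Without the Prl arrays the endothelial median was -0.00915. The NRF2 median was -0.000158 after centring, -0.00803 without the Prl arrays and -0.0108 to 0.0169 without 1 array. Of the named genes' results and list values, 68 calls were lost under the quantile normalisation, 150 with the SD covariate and 56 without the Prl arrays. Signal over background was not analysed here, so genes of low level carry the least certain differences.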
